A study of Mus musculus with 2 samples.

Results

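Tmem176a, Tmem176b and Plac8 are 3 of the 21829 genes listed for C2C12, an immortalised mouse myoblast line, and were picked by symbol because they had the largest rises from the WT library to the KO-labelled library in an earlier look at the same values. Of the 2 libraries of polyadenylated RNA, 1 came from unedited cells (genotype WT) and 1 from cells labelled GNE KO, a line derived from C2C12 by Cas9 editing of Gne and isolation of single clones. Both lines were grown as myoblasts in serum-containing DMEM, without further treatment. With 1 library per line, no difference has a replicate check and no test was made. Because the KO line is clonal, what belongs to the clone and what to the loss of Gne cannot be told apart. The targeted gene itself, Gne, the bifunctional enzyme of sialic acid synthesis, was at 6.67 FPKM in WT and 7.34 FPKM in the KO-labelled library, so its RNA level does not check the labels. FPKM are fragments per kilobase of transcript and unit of sequencing depth, a level that allows comparison between genes. The unit was inferred, and the values could also be TPM, the per-length unit the methods name.

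Tmem176a and Tmem176b encode small membrane proteins with a CD20-like fold, related to the MS4A family, and are best known from dendritic cells and type 17 lymphocytes, where Tmem176b acts as a cation channel of intracellular compartments and restrains the inflammasome. The pair lies at a single locus, with main start sites that point away from each other. Plac8, also called onzin, encodes a small cysteine-rich protein known from placenta, myeloid cells and plasmacytoid dendritic cells. It has been tied to adipocyte differentiation through the C/EBP factors and, in tumour cells, to the fusion of autophagosomes with lysosomes. None of these genes is a usual marker of myoblasts.

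The start regions are shown because those of the pair overlap, and Plac8 lies on another chromosome. The sequences are from RefSeq on GRCm38.p6, which gives entries for all 3 genes, and each window holds 250 bases before and 50 bases after a start site, read 5′ to 3′ along the gene. The Tmem176a window is chr6:48841233-48841532 on the plus strand and the Tmem176b window is chr6:48841088-48841387 on the minus strand. In these, capitals mark the 155 bases that both windows hold, which are the reverse complement of each other. The Plac8 window is chr5:100572156-100572455 on the minus strand, and its capitals mark a CCAAT box and 2 matches to the PU.1 core GAGGAA, on either strand.
Tmem176a: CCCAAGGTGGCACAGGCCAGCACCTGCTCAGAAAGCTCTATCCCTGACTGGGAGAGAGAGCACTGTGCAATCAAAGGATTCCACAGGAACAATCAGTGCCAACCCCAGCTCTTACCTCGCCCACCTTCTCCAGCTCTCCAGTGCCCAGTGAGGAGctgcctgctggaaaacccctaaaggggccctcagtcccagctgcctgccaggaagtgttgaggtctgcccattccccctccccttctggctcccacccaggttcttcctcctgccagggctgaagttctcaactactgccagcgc
Tmem176b: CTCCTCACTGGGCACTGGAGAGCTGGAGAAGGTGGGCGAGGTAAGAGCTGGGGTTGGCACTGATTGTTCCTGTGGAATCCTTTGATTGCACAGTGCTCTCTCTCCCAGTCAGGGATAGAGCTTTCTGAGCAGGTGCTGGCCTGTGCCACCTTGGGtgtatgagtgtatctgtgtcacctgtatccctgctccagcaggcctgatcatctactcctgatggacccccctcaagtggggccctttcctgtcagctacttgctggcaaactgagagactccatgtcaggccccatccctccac
Plac8: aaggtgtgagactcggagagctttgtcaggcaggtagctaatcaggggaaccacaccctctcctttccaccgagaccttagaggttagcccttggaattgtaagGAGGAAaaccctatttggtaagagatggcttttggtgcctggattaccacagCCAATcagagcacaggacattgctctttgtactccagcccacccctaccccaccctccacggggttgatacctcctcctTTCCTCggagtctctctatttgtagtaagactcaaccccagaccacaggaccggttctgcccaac

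The start sites of these Tmem176a and Tmem176b windows lie 346 bases apart, and RefSeq lists another start of Tmem176b 109 bases from that of Tmem176a. The whole RefSeq gene Tmem176b, from 48833811 to 48845948 on chromosome 6, spans the whole of Tmem176a, from 48841483 to 48845364. In GENCODE vM39 on GRCm39, 1084 exonic bases are shared by the genes on opposite strands, of 4783 in Tmem176a and 6392 in Tmem176b. The library kit keeps the strand, but whether the counting used it is not given in the sources used here. Reads from the shared exons could therefore have been assigned to either gene, and the levels of the pair are not fully separate measurements.

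**Figure D1:**
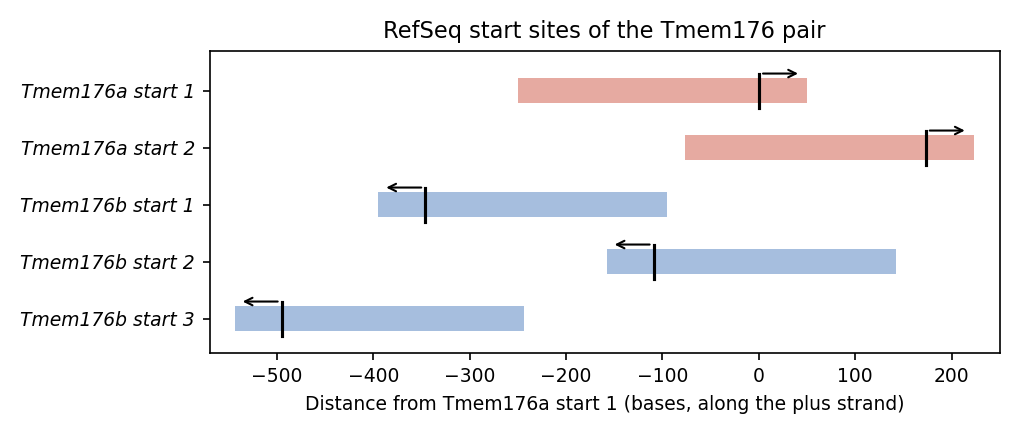
RefSeq start sites of Tmem176a (red, 2 sites) and Tmem176b (blue, 3 sites), by distance in bases from the first Tmem176a start; bars are the windows around each start, black lines the starts and arrows the direction of transcription. The starts shown for each gene point away from those of the other, and the first windows overlap by 155 bases.

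Short motifs were searched on both strands in the 7 RefSeq windows of these genes, and the share of all 32851 windows with a match is given beside each. The CCAAT box, bound by NF-Y, was found in 2 windows, both of Plac8, against 37.4% of all windows. The PU.1 core GAGGAA, the letters read by a myeloid and lymphoid factor, was found in 4 windows against 28.3%, and overlapped no CCAAT box. It was present in both windows of Tmem176a, in the second of Tmem176b and in the first of Plac8. The windows of Tmem176a and Tmem176b overlap, so these are partly the same matches. E-boxes, CANNTG, the letters read by MyoD and other basic helix-loop-helix factors, were found in 6 windows against 72.3%. The C/EBP core TTNNGNAA was found in 2 windows, both of Plac8, against 40.7%. No window held the AP-1 site TGANTCA (7.81% of all windows), the IRF core AANNGAAA (23.9%), the GC box GGGCGG (35.7%) or the TATA box TATAAA (13.6%). The matches describe letters in these windows and show no binding.

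Tmem176b had the highest level of the 3 genes in both libraries, followed by Tmem176a and Plac8. Tmem176b was at 3.54 FPKM in WT and 217 FPKM in the KO-labelled library. Tmem176a was at 1.71 FPKM in WT and 136 FPKM in the KO-labelled library. Both were weakly expressed in WT cells and among the more abundant transcripts of the KO-labelled library. Plac8 was at 0.074 FPKM in the WT library, close to absent, and at 29.8 FPKM in the KO-labelled library. In place among all 21829 genes ordered by level, Tmem176b moved from 9151 to 371, Tmem176a from 10008 to 630 and Plac8 from 12114 to 3129. In the KO-labelled library, Tmem176b was thus above 98.3% of genes, Tmem176a above 97.1% and Plac8 above 85.7%.

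**Figure D2:**
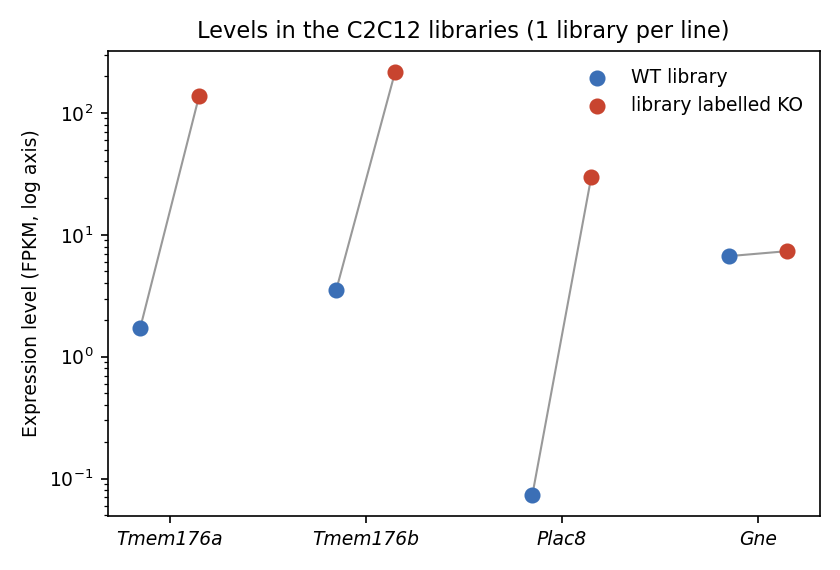
Level in FPKM (log axis) of Tmem176a, Tmem176b, Plac8 and the targeted gene Gne in the WT library (blue) and the KO-labelled library (red); each point is 1 library and lines join the same gene. The 3 genes are far higher in the KO-labelled library, whereas Gne is at 6.67 and 7.34 FPKM.

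On the linear scale, Tmem176a was 79.6-fold, Tmem176b 61.2-fold and Plac8 403-fold higher in the KO-labelled library. On the log2(FPKM + 1) scale, which understates the change of low genes, the differences were 5.66 for Tmem176a, 5.58 for Tmem176b and 4.84 for Plac8. All 3 genes had a mean of at least 1 FPKM, the filter applied, which Plac8 passed through the KO-labelled library alone, and all 3 were more than 2-fold higher, which 2.84% of the 10542 genes past the filter were. These values chose the genes, so their place at ranks 1, 2 and 3 among all rises is a description, and nothing is read from it. Just below them stood Col1a1, the main chain of type I collagen, with a difference of 4.69, and Postn, the matrix protein periostin, with 4.60. The order of the ranks depended on the pseudocount. With 0.1 in place of 1, Plac8 ranked 1, Tmem176a 10 and Tmem176b 14, and with 5 Tmem176b ranked 1, Tmem176a 2 and Plac8 5.

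The WT level of Plac8 rests on almost no reads. Low values in each file come in steps of a single fragment, from which the worth of 1 fragment over 1 kb was estimated at 0.0348 FPKM in WT and 0.0399 FPKM in the KO-labelled library, or about 28700000 and 25100000 fragments per library if the unit is FPKM. By this estimate the Plac8 value corresponds to 1.26 fragments in WT and 444 in the KO-labelled library. Taking 1 and 444 fragments, the exact 95% interval of the ratio runs from 90.9-fold to 20152-fold, so the size of the Plac8 difference is poorly determined. Tmem176a corresponds to about 70 and 4844 fragments, with an interval from 62.7-fold to 102-fold. For Tmem176b the estimate is about 128 and 6823 fragments, with an interval from 51.3-fold to 73.4-fold. These intervals cover counting error only, and the fragment numbers depend on the transcript lengths assumed.

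Tmem176b was 2.07 times Tmem176a in WT and 1.59 times in the KO-labelled library. The counting intervals of their fold changes overlap, and a difference between the fold changes was not tested. Plac8 stood at 4.32% of the level of Tmem176a in WT and at 21.8% in the KO-labelled library. Limits of at most 5 FPKM in WT and at least 100 FPKM in the KO-labelled library were picked with the levels of the pair known. Of all 21829 genes, 2 met them, Tmem176a and Tmem176b, and 0 met them in the opposite direction. With at most 0.1 and at least 10 FPKM, also picked with values known, 8 genes qualified, and 10 in the opposite direction. The balance of the counts changed with the limits, so nothing is read from 2 against 0.

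The genes most like each member were sought by distance, the Euclidean distance between the pairs of log2(FPKM + 1) values over the 2 libraries, so that likeness here means only a similar level in each. Nearest to Tmem176a was Tmem176b, at a distance of 0.996, and the same holds the other way round. After it came Thbs2, the matricellular protein thrombospondin 2, at 1.89, from 2.80 FPKM in the WT library to 37.8 FPKM in the KO-labelled library. Adgra2, an adhesion G protein-coupled receptor, was at a distance of 1.95, followed by Fam198b at 2.08 and Gpnmb at 2.14. For Tmem176b the next were Col1a1 at 1.27, Gpnmb at 1.87, the growth factor Ptn at 2.01 and the ligand Wnt10a at 2.41. Apart from its partner, no gene was closer to either member than 1.27. The pair was chosen by these same values, and its levels are not fully separate measurements, so nothing is read from these distances.

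Plac8 had closer companions. Postn was at a distance of 0.459, with 0.44 FPKM in WT and 33.9 FPKM in the KO-labelled library. Aspn, the small leucine-rich proteoglycan asporin, was at 0.587, with 0.609 and 28.5 FPKM. Cdh11, a cadherin of mesenchymal cells, was at 0.657, with 0.692 and 30.7 FPKM. Next were Selenop, a secreted selenium carrier, at 0.730 and Gm9732 at 0.802. Of these, Plac8 had the lowest level in the WT library, at 0.074 FPKM against 0.115 FPKM for Gm9732 and 0.44 FPKM or more for the others.

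**Figure D3:**
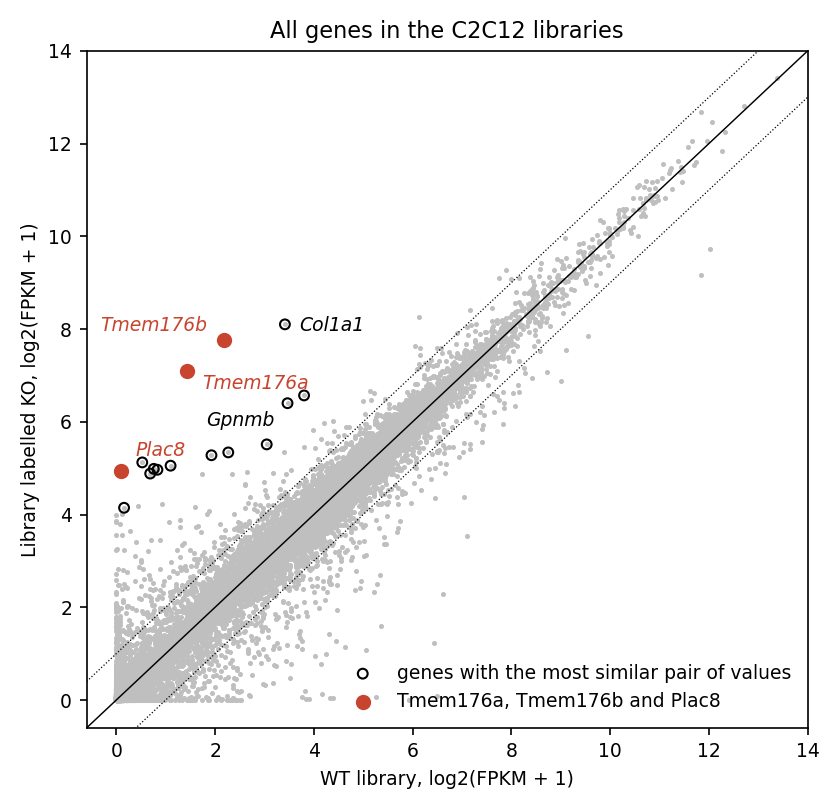
Every row of the files by log2(FPKM + 1) in the WT library (x axis) and the KO-labelled library (y axis); the solid line marks equal values and dotted lines a 2-fold difference on this scale. Red points are Tmem176a, Tmem176b and Plac8, at differences of 5.66, 5.58 and 4.84, and open circles are the genes with the most similar pair of values.

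Along the chromosomes, most neighbours of the 3 genes were at similar levels in both libraries. Neighbours were the 10 nearest RefSeq genes with a value on each side, ordered on GRCm38.p6. Of the 20 around the Tmem176 pair, 7 passed the filter, with a median log2 difference of 0.081, against 0.0061 for all genes. Of those 7, 2 were more than 2-fold higher and 0 lower, against 2.84% higher and 3.43% lower among all genes counted. Gpnmb, a transmembrane glycoprotein of lysosomes and melanosomes at higher coordinates than the pair, was at 10.1 FPKM in WT and 83.5 FPKM in the KO-labelled library, a log2 difference of 2.93. Gimap9, one of a cluster of immune GTPases on the other side, was at 0.225 and 2.10 FPKM, a log2 difference of 1.34, and passed the filter only through the KO-labelled library. Malsu1, Tra2a, Ccdc126, Fam221a and Zfp775, which passed the filter, had log2 differences between -0.092 and 0.22. The gene Aoc1, next to the pair on one side, and Gimap3, next to it on the other, were listed at 0 in both libraries, as were 9 of the 20 neighbours in all.

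Around Plac8 on chromosome 5, 15 of 20 neighbours passed the filter, with a median log2 difference of -0.10, and 0 were more than 2-fold higher. Cops4, a subunit of the COP9 signalosome next to Plac8 on one side, was at 59.2 FPKM in WT and 65.7 FPKM in the KO-labelled library. Coq2, an enzyme of coenzyme Q synthesis on the other side, was at 22.9 and 23.8 FPKM. Beyond it lies Hpse, the heparan sulfate cleaving enzyme heparanase, which was at 2.43 FPKM in WT and 0.282 FPKM in the KO-labelled library, a log2 difference of -1.42, and passed the filter only through WT. Hpse was the 1 neighbour of Plac8 more than 2-fold lower, as were 3.43% of all genes past the filter. The other 14, from Hnrnpd, Hnrnpdl, 4930524J08Rik, Enoph1, Sec31a and Lin54 on one side to Helq, Mrps18c, Abraxas1, Gpat3, Wdfy3 and Arhgap24 on the other, lay between -0.53 and 0.24.

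**Figure D4:**
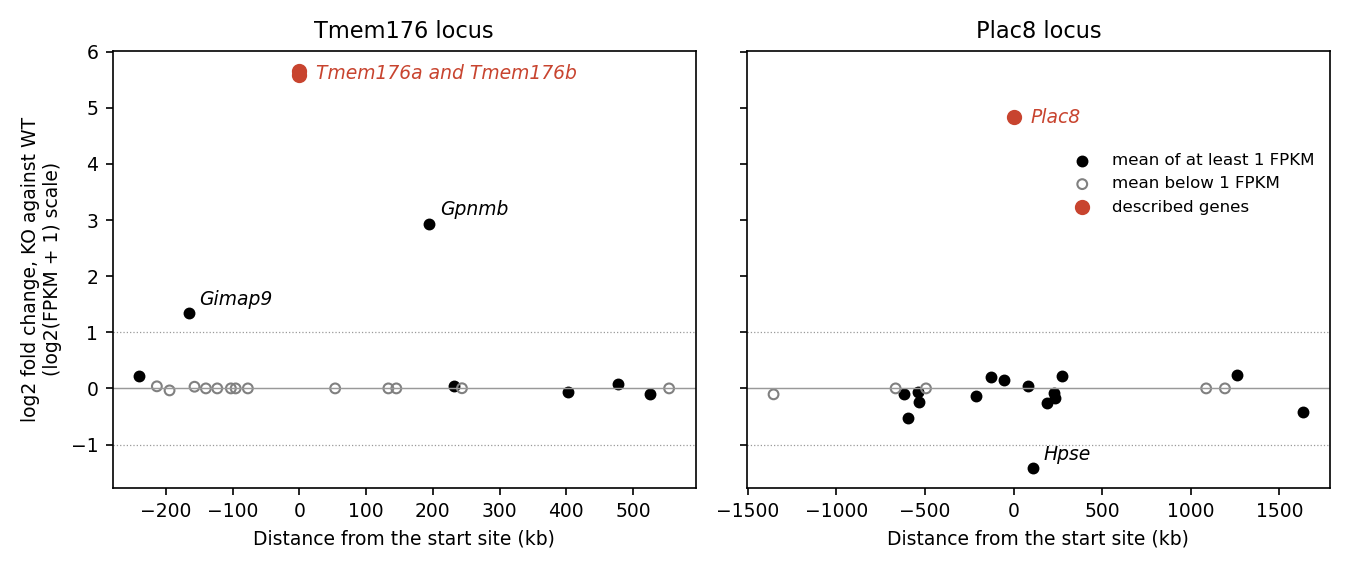
Log2 difference between the KO-labelled library and the WT library for the 10 nearest genes on each side of the Tmem176 pair (left) and of Plac8 (right), by distance in kb of the gene's lower coordinate from the start site of Tmem176a or Plac8. Filled points have a mean of at least 1 FPKM and dotted lines mark a 2-fold difference; Gpnmb, Gimap9 and Hpse are the neighbours beyond it.

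The relatives of these proteins were near or at 0. Of 19 genes of the CD20-like MS4A family, 16 were listed at 0 in both libraries, and the family summed to 0.054 FPKM in WT and 0.524 FPKM in the KO-labelled library. Ms4a4d was at 0.025 and 0.378 FPKM, Ms4a6d at 0.029 and 0.10 FPKM, and Ms4a2 at 0 and 0.046 FPKM. Of the other genes with a PLAC8 domain, Cnfn was listed at 0 in both libraries, and Plac8l1 at 0 in WT and 0.156 FPKM in the KO-labelled library. None of these listed relatives passed the filter.

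Because the 3 genes are known from immune cells, markers of such cells were read beside them. Of 12 macrophage and dendritic cell markers, 6 were listed at 0 in both libraries, namely Ptprc, Adgre1, Itgam, Itgax, Flt3 and Siglech, and the list summed to 22.8 FPKM in WT and 20.2 FPKM in the KO-labelled library. That sum is mostly Cd14, an endotoxin co-receptor also made outside the myeloid lineage, at 19.6 and 18.4 FPKM. Cd68, a lysosomal protein of macrophages, was at 2.85 and 1.06 FPKM. Spi1, which encodes PU.1, was at 0.017 FPKM in WT and listed at 0 in the KO-labelled library. The lymphoid markers reported here, Cd3e, Cd3g and Il7r, were listed at 0 in both libraries. Trophoblast markers summed to 0.284 and 0.273 FPKM, all from Plac1, with the other 5 at 0. Epithelial markers summed to 0.315 and 0.02 FPKM over 5 genes. Krt19 was the highest of them in WT, at 0.264 FPKM, and was listed at 0 in the KO-labelled library. Endothelial markers summed to 0.01 and 0.028 FPKM over 4 genes. Apart from Cd14 and Cd68, the markers given here were at or near 0 in the library in which Tmem176a, Tmem176b and Plac8 were high.

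Several myoblast markers differed in the direction opposite to the 3 genes. Of 7 markers 5 passed the filter, 4 were more than 2-fold lower in the KO-labelled library, against 3.43% of all genes, and 1 was more than 2-fold higher, against 2.84%. Of the 4, Myod1, Cdh15 and Chrna1 passed the filter only through the WT library, where they were high. The list summed to 199 FPKM in WT and 25.8 FPKM in the KO-labelled library, and Pax7 was listed at 0 in both. Myod1, the master regulator of the lineage, was at 59.97 FPKM in WT and listed at 0 in the KO-labelled library. Such a 0 can also be a failed estimate. Des, Cdh15 and Chrna1 were at 97.6, 16.6 and 15.3 FPKM in WT and 3.84, 0.701 and 0.917 FPKM in the KO-labelled library. Myf5, an early myogenic factor, was at 9.14 and 20.3 FPKM. In bulk RNA, fewer cells of a type and less RNA per cell cannot be told apart, and the part of such a shift in the levels of Tmem176a, Tmem176b and Plac8 was not tested.

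The functions the 3 genes are known for were read as lists, each beside the shares of all genes more than 2-fold higher, 2.84%, and lower, 3.43%. Among inflammasome genes, the pathway that Tmem176b restrains, 5 of 16 passed the filter, with 3 beyond 2-fold upward and 0 beyond it downward. The 3 passed only through the KO-labelled library, where they were high, so the filter shaped this count and nothing is read from it. Aim2, a sensor of cytosolic DNA, was at 0.015 FPKM in WT and 8.52 FPKM in the KO-labelled library. Casp4, the caspase that detects intracellular endotoxin, was at 0.851 and 6.13 FPKM, and Naip2, a sensor of bacterial secretion systems, at 0.448 and 1.97 FPKM. Other core genes had low or similar values. Pycard, the adaptor, Nlrc4 and Il1b were listed at 0 in both libraries, Nlrp3 was at 0.065 FPKM in WT and 0 in the other, and Casp1 was at 1.40 and 0.416 FPKM, below the filter. Il18, also below the filter, was at 0.065 FPKM in WT and 0.942 FPKM in the KO-labelled library. The executioner Gsdmd was at 18.9 and 16.3 FPKM and Nek7 at 54.5 and 56.5 FPKM.

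Of the MHC class II genes, whose products pass through the compartments where the Tmem176 proteins are found, 9 of the 12 with a value were listed at 0 in both libraries, among them Ciita, the master activator. H2-DMa, the 1 gene past the filter, was at 1.76 FPKM in WT and 1.90 FPKM in the KO-labelled library, and Cd74, the invariant chain, was at 0.721 and 0.545 FPKM. Of 11 genes of type 17 cells, 2 passed the filter and 0 were beyond 2-fold. Il1r1, the interleukin-1 receptor, was at 9.93 and 18.3 FPKM and the receptor Ahr at 6.31 and 6.27 FPKM.

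For Plac8, all 25 genes of autophagosome-lysosome fusion passed the filter, and 24 of them were within 2-fold, with a median log2 difference of 0.12. The 1 gene beyond it was Map1lc3a, which encodes the autophagosome protein LC3A, at 16.1 FPKM in WT and 35.9 FPKM in the KO-labelled library, a log2 difference of 1.11. The fusion SNAREs Stx17, Snap29 and Vamp8 were at 6.09, 9.56 and 69.7 FPKM in WT and 4.28, 16.1 and 82.2 FPKM in the KO-labelled library. Of 12 C/EBP and adipocyte genes 6 passed the filter, 2 were more than 2-fold higher and 0 lower, with a median of -0.086, and Lpl passed only through the KO-labelled library. Lpl, lipoprotein lipase, was at 0.893 and 17.8 FPKM and Cebpa at 5.44 and 13.1 FPKM. Cebpb, the C/EBP gene tied to Plac8, was at 54.9 FPKM in WT and 40.7 FPKM in the KO-labelled library. Of the genes below the filter, Adipoq, Plin1, Prdm16 and Ucp1 were listed at 0 in both libraries. The others below it, Ppargc1a and Fabp4, were at 0.051 and 0 FPKM in WT and 1.09 and 0.321 FPKM in the KO-labelled library.

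**Figure D5:**
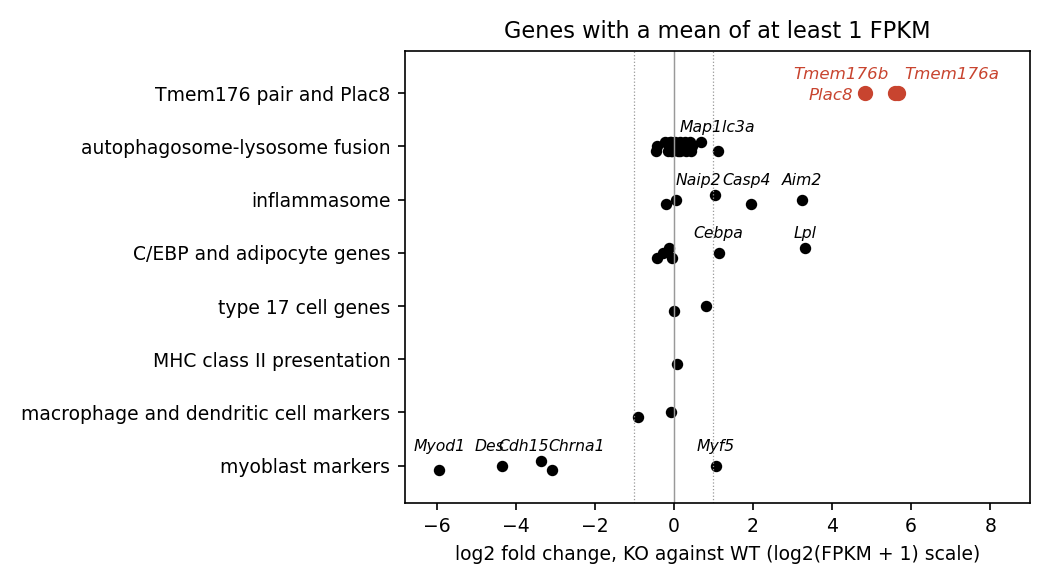
Log2 difference between the KO-labelled library and the WT library of Tmem176a, Tmem176b and Plac8 (red) and of the genes of 7 lists (black) with a mean of at least 1 FPKM; each point is 1 gene, dotted lines mark a 2-fold difference and vertical offsets within a list carry no meaning. The 3 genes were chosen for their rises, so their place above every listed gene was set by that choice. Of the listed genes, Lpl at 3.32 and Aim2 at 3.23 are highest. Myod1 is drawn at -5.93 with its value of 0 in the KO-labelled library, which can also be a failed estimate.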

How the data were processed

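For WT and KO C2C12 cells the authors deposited a single column of values by gene symbol, read here as FPKM. No unit is stated, and it was inferred from column totals, 568410 in WT and 574144 in KO, which differ and match no fixed sum. The methods name expected counts and TPM from RSEM, and not FPKM. The values could therefore be TPM from a table cut to these genes, which would leave the fold changes as computed but not the estimated fragments per library. The submitters' processing notes list FastQC, Trim Galore 0.6.6, STAR 2.7.9a and RSEM 1.3.3 with GRCm38, whereas the methods name GRCm39, and which tool wrote the values is not given in the sources used here. The notes describe an Illumina stranded kit and the methods an MGI directional kit.

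Repeated symbols (24) were reduced to the entry with the higher mean. Differences are log2((KO + 1)/(WT + 1)), for genes averaging 1 FPKM or more, and calls are more than 2-fold. The design allowed no test with 1 library per line, and counts over all genes serve as background. The members, lists and motifs were chosen with earlier results of these data known. Named genes were the members, Gne, the 5 genes nearest to each member, neighbours past the filter or beyond 2-fold, list genes beyond 2-fold or, where none was, the 2 highest, and detected relatives. Any further gene named was picked with its values in view. Of 13 MHC class II genes, 12 were matched. Some members of the lymphoid and type 17 lists and a motif are not reported here.

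The worth of 1 fragment was the most frequent product, between 0.02 and 0.06, of value and length in kb less 150 bases, over 97 (WT) and 104 (KO) low genes with a single GENCODE vM39 transcript longer than 800 bases, settings chosen after the values were seen, and fragments of the members used their median transcript lengths of 1566, 1406 and 744 bases. Ratio intervals are exact binomial. Gene order and start windows came from RefSeq on GRCm38.p6. Software was matplotlib 3.10.9, scipy 1.17.1, pandas 2.3.3 and numpy 2.4.6 under Python 3.11.15. Alternatives were pseudocounts of 0.1 and 5, a filter at 5 FPKM, none at all, median-of-ratios scaling, scaling to a fixed total and neighbours within 1 Mb.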

Additional observations from a re-analysis of the deposited data

How the results depend on the processing

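No paired analysis was possible because each group holds 1 library and no result comes from a test. Leaving out a replicate was not possible for the same reason. A value was taken as moved when it shifted by more than the interquartile range of all log2 differences, and a count when it changed by more than 1.5 times. With a pseudocount of 0.1 the log2 difference was 6.23 for Tmem176a and 7.43 for Plac8, and with 5 it was 4.40 for Tmem176a, 4.70 for Tmem176b and 2.78 for Plac8. Scaling both libraries to the same, larger total gave 5.55 for Plac8, since this lowers the weight of the pseudocount. All 3 genes remained higher in the library labelled KO under every alternative run. A pseudocount of 5 reduced the 299 higher genes to 102 and the 362 lower genes to 176, and a filter at 5 FPKM, which leaves fewer genes, to 145 and 221. The median of the neighbours of the Tmem176 pair was 0.081 and became -0.033 within 1 Mb on each side, with 16 genes past the filter, both near 0. Of 104 counts of lists under alternatives, 99 were the same by this rule and 5 moved, 4 of them with a pseudocount of 5, where the inflammasome list kept 1 higher gene of 3. The ratio of Tmem176b to Tmem176a on the log2 scale was 1.52 in WT and 1.09 in KO.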

Other observations

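Plac8 belongs to a small group of genes listed at no more than 0.1 FPKM in the WT library and at least 10 FPKM in the KO-labelled library, limits that were set after the values were seen. The group holds 8 of all 21829 genes, and Plac8 has the highest level among them in the KO-labelled library, 29.8 FPKM. Plac8 was chosen for its rise between these libraries, so nothing is read from its place in the group. The others are Arhgap29, a GTPase-activating protein, at 15.05 FPKM, Rbpms, an RNA-binding protein of smooth muscle, at 14.9 FPKM, Smim20 at 13.5 FPKM, Casd1, the enzyme that acetylates sialic acids, at 13.3 FPKM, Igf2r, the receptor that clears IGF2, at 13.0 FPKM, and Defb41 and Edil3, both at 10.8 FPKM. Rbpms, Smim20, Casd1 and Defb41 were listed at 0 in the WT library, where a 0 can also be a failed estimate. In the opposite direction 10 genes met the same limits, led by Stmn2, a microtubule regulator of neurons, at 89.3 FPKM in the WT library.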
